A study of Mus musculus with 2 samples.

Results

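The mRNAs described here are those of Calm3, which encodes calmodulin, and of Nrgn and Pcp4, which encode the small calmodulin-binding proteins neurogranin and Pcp4 (PEP-19). Their peaks were all entries of a deposited Mov10 peak list that shared at least 1 base with an exon of one of these genes and lay on the strand opposite to the gene, whatever their adjusted p. This gave 6 of the 2296 listed peaks: 2 at Calm3, 1 at Nrgn and 3 at Pcp4. Reading them as the mRNA assumes that the listed strand is opposite to that of the RNA, which was not tested. The genes were chosen because the list holds peaks at them, so their enrichment in the immunoprecipitate is given as a description and is not tested.

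The list compared RNA recovered with Mov10, an RNA helicase that associates with Fmrp and Argonaute proteins, with total input RNA from the same source. Both libraries, a Mov10 IP and an input, came from the brains of 28 wild-type C57bl/6 pups taken on postnatal day 2 and combined, so each condition was 1 pool and 1 library, with no replicate. The brains were homogenized without UV cross-linking, and the extract was exposed to an unrelated antibody, anti-EGFP, before the Mov10 antibody. The IP library held 1.20 times as many aligned reads as the input library, and the listed peaks together held 2341964 IP reads and 926150 input reads. In whole brain, fewer cells of a type and less RNA per cell cannot be told apart.

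Of the 2296 peaks, 882 lay on assembled chromosomes, the mitochondrial one included, and 768 of these covered an exon of a gene on the opposite strand, at 558 genes. These 768 exonic peaks are the background used throughout, and their median IP over input ratio was 14.6 (quartiles 8.96 to 23.3). Peaks were listed at 6 of 10 neuron markers, 3 of 8 astrocyte and radial glia markers, 1 of 6 oligodendrocyte lineage markers and 2 of 7 vascular and meningeal markers, and at 0 of 6 microglia and 0 of 6 blood cell markers, against 2.04% of all protein-coding genes. All 10 neuron markers lay on strands with a peak of some gene, but only 6 of the astrocyte and radial glia, 4 of the oligodendrocyte, 6 of the vascular and meningeal, 3 of the microglia and 4 of the blood cell markers did. A gene without a listed peak may still be present in the RNA, since the number of IP reads at the weakest listed peak ranged from 226 to 20339 among the 32 chromosome strands that hold a peak.

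Calmodulin is the calcium sensor that binds calcium through its EF hands and then engages kinases, phosphatases, channels and cyclases. More than 1 gene encodes it, among them Calm2 and Calm3, which differ in their mRNAs and untranslated regions (UTRs). Neurogranin holds calmodulin near the postsynaptic membrane through its IQ motif while calcium is low, releases it when calcium rises or when protein kinase C phosphorylates the motif, and its mRNA is known to travel into dendrites. Pcp4 carries an IQ motif as well, is abundant in cerebellar Purkinje cells and speeds the exchange of calcium by calmodulin. All of these are linked to how calcium signals are read in synapses and dendrites.

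Calm2 is the calmodulin gene compared with Calm3 here. In GENCODE M21 the coding sequences of Calm2 and Calm3 were 450 bases each with the stop codon and translated to the same 149 residues, with 100% residue identity. Their bases were less alike, with 78 different bases (82.7% identity). Coding bases 184 to 213, the in-frame stretch of 30 bases with the most differences, are shown because they display how the genes can be told apart by their reads although the protein is the same. Capitals mark the 8 positions at which the sequences differ, and both stretches have 1 translation.
Calm2: ggCacAattgaTttcccTgaAttTCtgacA
Calm3: ggGacCattgaCttcccAgaGttCTtgacC

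The Calm3 peaks lay in its long 3′ UTR, outside the coding sequence that the calmodulin genes share. The gene (ENSMUSG00000019370.10, mm10, chromosome 7, 16915379 to 16924114, minus strand) is represented by transcript Calm3-201, with 2290 bases in 6 exons and a 3′ UTR of 1569 bases. The first peak (chr7:16916601-16916800) began 147 bases after the stop codon and covered mRNA bases 869 to 1068. The second peak (chr7:16915401-16915600) covered bases 2069 to 2268 and ended 22 bases before the 3′ end of the mRNA. Both fell wholly within exon 6, and 1000 bases, or 5 windows of the peak caller, separated them with no listed peak in between.

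A separate experiment of the same study on other newborn pups, in which brain RNA was cross-linked to Mov10 with UV light before immunoprecipitation (iCLIP), gave a 21-base sequence that matched Calm3. The match was to the reverse complement of the sequence as listed, not to the listed form. It is shown as this reverse complement, on the mRNA strand and wholly in capitals, because it lies next to the second Calm3 peak.
Calm3 iCLIP sequence: TTGCTTTTTGCTGGGACCTGC
Its place is chr7:16915648-16915668 on the minus strand, which is mRNA bases 2001 to 2021, in the 3′ UTR. It ended 47 bases before the second peak and began 932 bases after the first, so neither peak covered it. Among 141767 GENCODE transcripts the sequence occurred in 2, both of Calm3.

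Nrgn (ENSMUSG00000053310.11, chromosome 9, 37544492 to 37552904, minus strand) had 1 peak (chr9:37544981-37545200), which also lay wholly in the 3′ UTR. In transcript Nrgn-201, of 1453 bases and 4 exons, it covered bases 745 to 964. It began 154 bases after the stop codon, close to the 147 bases at Calm3, and left 489 bases to the 3′ end. The 234 coding bases before the stop codon, which include the IQ motif, carried no listed peak.

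Pcp4 (ENSMUSG00000090223.2, chromosome 16, 96467606 to 96525793, plus strand) had a peak at each of the 3 exons of its short mRNA, Pcp4-201, of 641 bases. The first (chr16:96467701-96467910) shared 90 bases with exon 1, of which 81 were 5′ UTR and 9 coding. The second (chr16:96493741-96493950) took in the whole of the 52-base exon 2, which is coding. The third (chr16:96525661-96525870) shared 133 bases with exon 3, all of them 3′ UTR and reaching the last base of the mRNA. On the genome, 25830 bases lay between the first and second peak and 31710 between the second and the third, but in the spliced mRNA the first and second were adjacent (0 bases apart) and 271 bases separated the second and the third.

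The exon junctions of Pcp4 are shown because they join, in the mRNA, peaks that lie far apart on the genome. Capitals mark the bases of exon 2 (chr16:96493816-96493867), and lower case the bases of exon 1 or exon 3.
Pcp4 exon 1 to exon 2: atgagtgagAGACAAAGTGCCGGAGCGACC
Pcp4 exon 2 to exon 3: CGTCAGGAGATAATGatgggcagaagaaag
The start codon opens the first of these, so the first peak ended, within the mRNA, 9 bases into the coding sequence. Exon 2 is also exon sequence of a longer transcript, Igsf5-206, of the neighbouring gene Igsf5 on the same strand, with all 52 bases shared. Reads at the second peak therefore cannot be assigned to Pcp4 alone, whereas the peaks at exons 1 and 3 shared no exon base with another gene.

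**Figure D1:**
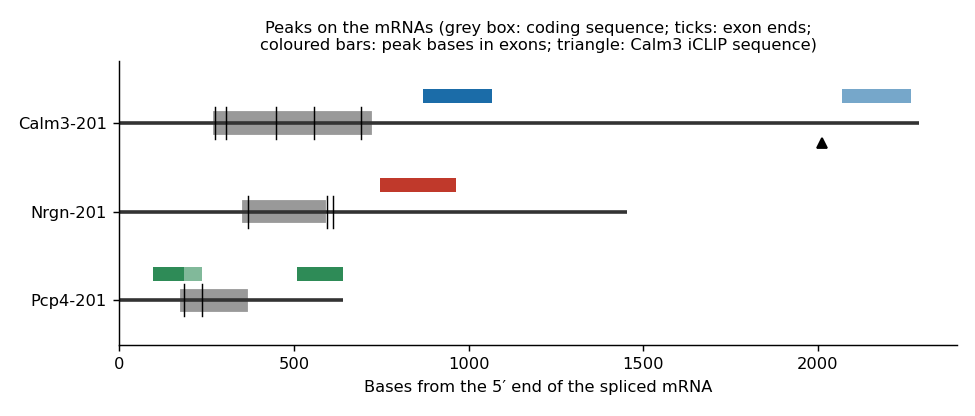
Place of the peaks on the spliced mRNAs of Calm3, Nrgn and Pcp4, drawn to scale in bases from the 5′ end, with the coding sequence as a grey box, exon ends as ticks, the exonic bases of each peak as coloured bars (a paler shade for the second peak of a gene) and the 21-base Calm3 iCLIP sequence as a triangle. The Calm3 and Nrgn peaks lie in the 3′ UTR, and the Pcp4 peaks adjoin at the first exon junction and return at the 3′ end.

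By the larger part of their exonic bases, 4 of the 6 peaks lay in a 3′ UTR, 1 in coding sequence and 1 in a 5′ UTR. Among the 636 exonic peaks assigned to protein-coding transcripts, 29.9% lay mostly in a 3′ UTR, 60.1% in coding sequence and 10.1% in a 5′ UTR. The 6 peaks come from 3 mRNAs and are not independent, so this is a description of these genes. Pcp4 peaks were less exonic than most: 42.9%, 24.8% and 63.3% of their bases lay in exons, since the windows of 210 bases ran past the ends of its exons. Of the background peaks, 11.5% had under 50% of their bases in exons.

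The peaks near the 3′ ends of Calm3 and Pcp4 were poor in G and C, with 38.5% GC at the second Calm3 peak and 35.3% at the Pcp4 exon 3 peak. The median of the 636 background peaks was 54.0%, with quartiles of 47.2% and 60.3%, so both values lay below the lower quartile. The other 4 peaks had 59.0% (first Calm3), 60.0% (Nrgn), 60.0% (Pcp4 exon 1) and 50% (Pcp4 exon 2). The GC content of the whole mRNAs was 58.3% for Calm3, 58.6% for Nrgn and 47.1% for Pcp4. A polyadenylation signal of the form AATAAA, searched on the mRNA strand in the last 50 bases, began 20, 24 and 26 bases from the annotated 3′ end of Calm3, Nrgn and Pcp4. AATAAA or ATTAAA was present in this stretch in 74.9% of the 434 transcripts to which background peaks were assigned.

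At the first Calm3 peak, 4439 reads were counted in the IP and 225 in the input. At the second, the counts were 4699 and 461. The IP counts of the 2 peaks were similar, and the input was higher near the 3′ end. Each ratio divides the IP reads per aligned IP read by the input reads per aligned input read, and its 95% exact conditional binomial interval covers counting error only. These ratios were 16.4 (14.4 to 18.9) at the first peak and 8.50 (7.72 to 9.37) at the second. Against the first peak, the second had 0.517 of the ratio (exact conditional interval 0.436 to 0.611), a comparison in which the library totals cancel. Summed over both peaks, Calm3 had 9138 IP and 686 input reads, a ratio of 11.1 (10.3 to 12.02), and lay at rank 361 of 558 genes.

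At the Nrgn peak, 20339 reads were counted in the IP and 146 in the input. This is the 6th highest IP count of the 768 exonic peaks, but no peak with fewer IP reads was listed on its strand. Any peak listed there would thus rank at least as high by IP reads. The input count of the Nrgn peak lay above the background median of 107. Its ratio was 116 (98.7 to 138), the 25th highest among the peaks and rank 18 of the 558 genes. In reads per kb of peak per 1000000 aligned reads (RPKM), the counting interval was 1275 to 1310 for its IP level and 9.40 to 13.1 for its input level. This difference is a description, since Nrgn was picked from the list. An interval of the ratio above 1 was found at 99.3% of the 768 exonic peaks. The Nrgn peak alone thus held most of the 31271 IP reads found over the 6 peaks, against 868 input reads in all, and the 6 peaks held 1.45% of the IP reads of all exonic peaks.

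At Pcp4 the counts were lower in both libraries. The exon 1 peak had 581 IP and 20 input reads, the exon 2 peak 522 and 1, and the exon 3 peak 691 and 15. The IP counts lay within a narrow range across the gene, and each was below the background median of 1825 IP reads. Such counts were usual on this strand, whose 88 listed peaks started at 431 IP reads and had a median of 607.5. The ratios were 24.2 (15.5 to 39.9) at exon 1, 435 (77.8 to 17220) at exon 2 and 38.4 (23.1 to 69.0) at exon 3. The wide interval at exon 2 reflects its single input read, and with a pseudocount of 1 its ratio was 218. Of the 768 exonic peaks, 20 had 3 or fewer input reads. The exon 3 and exon 1 peaks could not be told apart, with a ratio of ratios of 1.59 (0.764 to 3.36). The exon 2 peak had 18.0 times the ratio of the exon 1 peak, with an interval of 2.85 to 746. Over all 3 peaks, 1794 IP and 36 input reads gave a ratio of 41.5 (29.9 to 59.5), at rank 54 of 558 genes. Without the exon 2 peak, whose reads may also come from Igsf5, the ratio was 30.3. The rank and the comparisons of the Pcp4 sum with other genes use all 3 peaks.

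**Figure D2:**
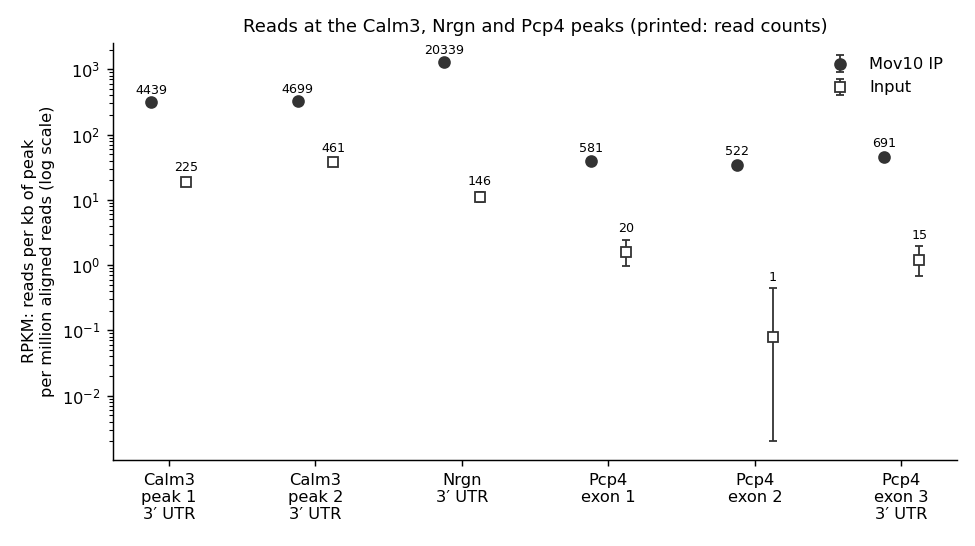
RPKM, reads per kb of peak per 1000000 aligned reads (log axis), in the Mov10 IP (filled circles) and the input (open squares) at each Calm3, Nrgn and Pcp4 peak, with exact 95% Poisson intervals for counting error and the read counts printed above the points. Nrgn has the highest IP level, 1293, on a strand with no listed peak of fewer IP reads. The second Calm3 peak has the highest input level, 38.7.

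In RPKM, the input levels were 18.9 and 38.7 at the Calm3 peaks, 11.1 at the Nrgn peak and 1.60, 0.0799 and 1.20 at the Pcp4 peaks. The IP levels on the same scale were 310 and 329 for Calm3, 1293 for Nrgn, and 38.7, 34.8 and 46.0 for Pcp4. In the input, both Calm3 peaks lay above the Nrgn peak and the Nrgn peak above the Pcp4 peaks. The input intervals did not overlap between genes. These levels belong to single windows, which differed even within Calm3, so they do not rank the mRNAs. Listed IP counts ran 20339 to 41875 on the Nrgn strand, 3691 to 8522 on that of Calm3 and 431 to 2502 on that of Pcp4. No range overlapped another, so the order of any listed peaks by IP counts was fixed by their strands. In the IP, the Nrgn peak stood above the Calm3 peaks and these above the Pcp4 peaks. The order by ratio differed from both, with Nrgn at 10.5 times Calm3 (8.72 to 12.6) and 2.80 times Pcp4 (1.88 to 4.06), and Pcp4 at 3.74 times Calm3 (2.66 to 5.41), each summed over a gene's peaks. For single peaks, Nrgn was 4.80 times the Pcp4 exon 1 peak (2.82 to 7.75) and 3.024 times the exon 3 peak (1.64 to 5.19), but could not be separated from the exon 2 peak (0.267, with an interval of 0.00670 to 1.52). Pcp4 levels over whole peaks include bases outside its exons, which make up 158 of the 210 bases at exon 2. At exons 1 and 2 these are intron bases, and at exon 3 they lie past the annotated 3′ end.

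**Figure D3:**
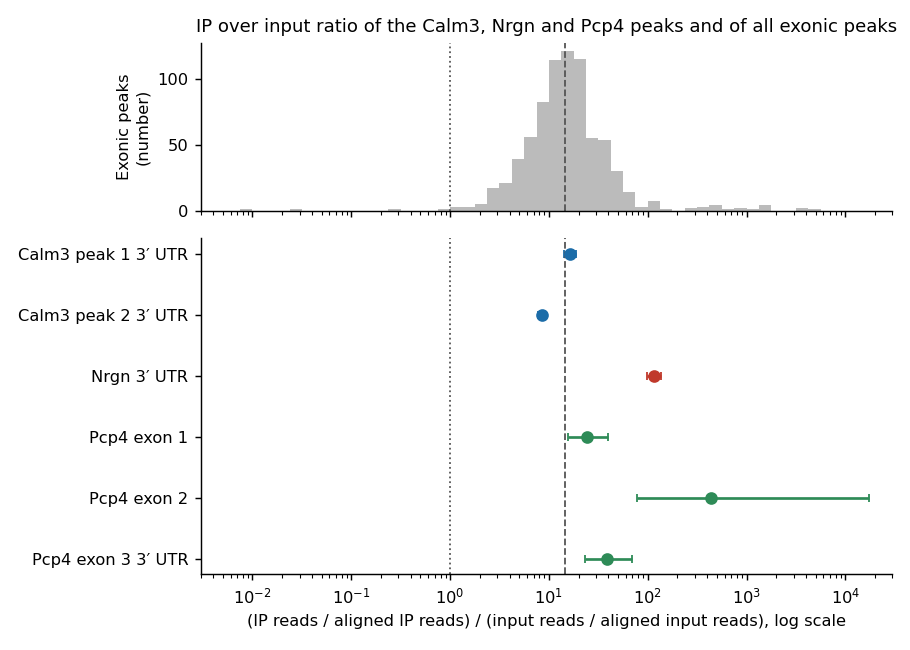
Ratio of IP to input, each relative to its aligned reads, on a log axis, as a histogram of the 768 exonic peaks (top) and for each Calm3, Nrgn and Pcp4 peak with 95% exact intervals (bottom), the dashed line marking the background median of 14.6 and the dotted line a ratio of 1. Of the Calm3 peaks, the first lies near the median and the second, at 8.50, below the lower quartile of 8.96, while Nrgn lies in the upper tail.

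All 6 peaks had an interval above a ratio of 1, as did 99.3% of the 768 exonic peaks, and all 6 had an adjusted p of at most 0.05 from the peak caller, as did 90.4%. These shares are near the background and, as the genes were picked from this list, nothing is read from them. At an empirical false discovery rate (eFDR, from a run with the libraries swapped) of at most 0.05, 3 of the 6 remained, which were the 3 Pcp4 peaks, against 36.8% of the background. The eFDR was 0.667 for both Calm3 peaks and for all 27 peaks on their chromosome strand, and 0.4 for Nrgn and all 5 peaks on its strand, so it does not set these peaks apart from their neighbours. On the Pcp4 strand, 87 of 88 peaks passed.

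The peak caller handled each chromosome strand on its own, and the IP counts at which peaks were listed differed accordingly. On the strand of the Calm3 peaks the 27 listed peaks had 3691 to 8522 IP reads (median 4450), so both Calm3 peaks were ordinary in IP reads there, at ranks 15 and 8, and at ranks 19 and 24 by ratio. The Nrgn peak was the lowest of 5 in IP reads, on a strand whose peaks held 20339 to 41875, and the highest in ratio. The others on that strand covered Eef1a1, which encodes a translation elongation factor, with ratios of 21.3 (20.03 to 22.7) and 12.4 (11.98 to 12.9), Rps27rt, a ribosomal protein retrogene, with 2.08 (2.03 to 2.12), and Rn7sk, the 7SK small nuclear RNA, with 0.0289 (0.0286 to 0.0293). No window with fewer IP reads than the Nrgn peak was listed on that strand, at Nrgn or elsewhere. On the Pcp4 strand the 88 peaks ranged from 431 to 2502 IP reads (median 607.5). The Pcp4 peaks were ranks 51, 65 and 32 by IP reads and 17, 1 and 9 by ratio. Where a peak had 0 input reads, 3 stood in for its ratio, which put a peak there with 1019 IP reads at 283. The rank of 1 at exon 2, with 1 input read, rests on this setting.

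**Figure D4:**
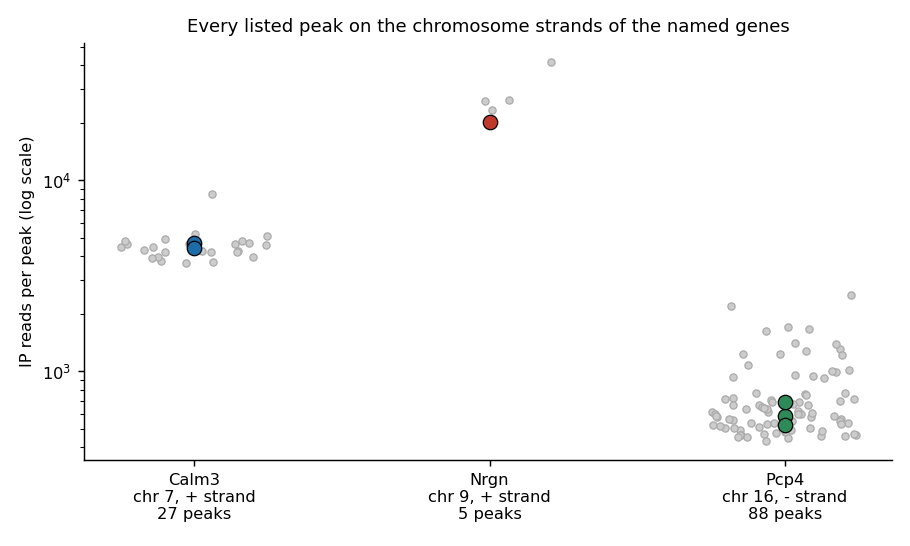
IP reads (log axis) at every listed peak on the chromosome strands that hold the Calm3, Nrgn and Pcp4 peaks, with the peaks of the named gene as large coloured points and the others in grey, spread sideways at random. Counts start at 3691, 20339 and 431 reads on these strands, and the Nrgn peak is the lowest of its 5.

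No peak was listed at Calm2, on a strand whose 19 peaks each had at least 5450 IP reads, a level that neither Calm3 peak reached. None of the calmodulin-like genes Calm4, Calm5, Calml3 and Calml4 had a listed peak, and all 4 lay on strands with no peak of any gene.

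Among the small IQ motif proteins, Nrgn and Pcp4 were the 2 of 4 with a peak. No peak was listed at Gap43, a growth cone protein that binds calmodulin through the same kind of motif, on a strand with 27 peaks of at least 1039 IP reads. The strand of Pcp4l1, the closest relative of Pcp4, held 0 peaks. The list of genes in the pathway was put together with results of these data known and includes Calm3, Nrgn and Pcp4. Of its 73 genes, 6 had an exonic peak (8.22%), against 2.04% of all 22028 protein-coding genes, and 26 of the 73 lay on strands with no peak of any gene.

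The further genes with a peak were Add2, Vsnl1 and Calb1. Add2, β-adducin, a spectrin and actin linker that binds calmodulin and is a protein kinase C substrate, had ratios of 2.33 (1.94 to 2.81) from 453 IP and 162 input reads in its 5′ UTR and 6.80 (5.30 to 8.85) from 571 and 70 in coding sequence. Vsnl1, visinin-like 1, an EF-hand calcium sensor of neurons, had 5341 IP and 738 input reads and a ratio of 6.03 (5.58 to 6.52). Calb1, calbindin, an EF-hand calcium buffer abundant in Purkinje cells, had 1441 and 68, a ratio of 17.7 (13.8 to 22.9). No peak was listed at any of 15 calmodulin-dependent kinase genes, 8 genes of calcineurin and its regulators, 7 of calmodulin-regulated cyclases, phosphodiesterases and nitric oxide synthase, or 14 of pumps, channels and myosin, of which 11, 6, 5 and 6 lay on strands with peaks.

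The genes closest to each by summed ratio, among those with at least 100 IP and 10 input reads, are given as a measure of likeness over the 2 libraries only. For Calm3, at 11.1, they were the zinc finger gene Zfp148 (11.1), the presynaptic adhesion gene Nrxn2 (11.04) and Grina (11.2). For Nrgn, at 116, they were the ribosomal protein pseudogene Rpl21-ps8 (113), Stmn4 (93.5), a stathmin that binds tubulin, and Dnaja1 (90.6), a heat shock co-chaperone. For Pcp4, at 41.5, they were Fam32a (41.4), Ccdc174 (41.7) and the pseudogene Gm13340 (42.1). In each case the intervals of the neighbours overlapped that of the gene.

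The rule required only 1 exonic base, and the smallest overlap kept among the 6 peaks was the 52 bases of Pcp4 exon 2. No listed peak touched the span of Calm3, Nrgn or Pcp4 on either strand without covering an exon on the opposite strand (0 peaks each), so no peak of these genes was left out by the rule. No exonic stretch of the peaks had a copy of at least 95% identity over 90% of its length in transcripts of other genes, except Pcp4 exon 2 in Igsf5-206 at the same place in the genome.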

How the data were processed

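RNA from 1 Mov10 IP and 1 input library was sequenced. Reads were aligned by the authors to mm10 with TopHat2 2.1.1, keeping multiple alignments of a read, and merged with samtools 1.3. They called peaks with RIPSeeker 3.3, each strand apart, assigning each multiply aligned read to 1 place, over windows chosen per chromosome strand. The deposited peak list gives, per peak, the IP and input read counts, p-values, adjusted p-values and eFDR as RIPSeeker wrote them, and no per-read data. Reads without molecular identifiers are not independent molecules. The intervals treat reads as independent, so they cover counting error of reads only and may be too narrow.

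From these, ratios were computed with aligned library totals from the study's methods, exact 95% intervals with scipy 1.17.1 and places from GENCODE M21 (longest coding sequence), in Python 3.11.15. Where a peak had 0 input reads, 3 were used in its ratio. RefSeq exons were not used here. Copies were searched with BLAST+ 2.17.0. The interval code was tested on simulated data. Every peak of the genes, every listed pathway gene with an exonic peak and the 3 genes nearest in ratio were named. Members and gene lists were chosen with earlier results of these data known. With 1 library per group no test between conditions was possible. Other library totals, a pseudocount of 1, stricter thresholds and other overlaps were tried as alternatives. An item of the pathway list is not reported here.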

Additional observations from a re-analysis of the deposited data

How the results depend on the processing

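With uniquely aligned reads as library totals the summed ratios were 6.81 for Calm3, 71.2 for Nrgn and 25.5 for Pcp4, and with all sequenced reads 9.10 for Calm3 and 95.2 for Nrgn. The peak with the most IP reads gave Calm3 8.50. Divided by the median of exonic peaks, Nrgn stood at 7.93, Pcp4 at 2.84 and Calm3 at 0.759, so Calm3, and its second peak alone at 0.581, lay below the typical exonic peak. At an eFDR of at most 0.05, 3 peaks of the genes passed and 36.8% of the background. Each setting changes by its own construction the divisor, the threshold or the peaks summed. Of 49 alternative values 25 kept within the counting interval or within 1.5 times the count. A pseudocount of 1 and an adjusted p of at most 0.01 moved no value past these limits, although the pseudocount took the Pcp4 exon 2 ratio from 435 to 218, within its wide interval, nor did requiring 50% of a peak in exons (4 peaks), transcripts paired with RefSeq or whole gene spans (6 pathway genes). In alternatives chosen after seeing the data, Pcp4 without its exon 2 peak gave 30.3, and over the 3 strands that hold the peaks alone, 99.2% of exonic peaks had an adjusted p of at most 0.05. Exons of GENCODE alone are the exons used throughout. No paired analysis was possible because each group had 1 library. Depth limits the Pcp4 ratios most, which rest on 36 input reads, and the absence of replicates limits all of them.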
